A study of Mus musculus with 9 samples.

Results

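The comparison described here is that of first-generation (G1) Terc-/- embryonic stem cells (ESCs) with wild-type (WT) ESCs, read across the RNA of 623916 single copies of transposable elements (TEs). Both groups are mouse ESCs of the C57BL/6 strain, self-renewing cells taken from the early embryo, with 3 libraries each, so that 6 of the 9 libraries of the series enter the comparison. WT ESCs carry an intact Terc gene. G1 Terc-/- ESCs lack Terc and were derived from blastocysts of an intercross of heterozygous mice, and fourth-generation (G4) Terc-/- ESCs descend from later crosses of the knockout. Feeder cells were removed before total RNA was taken, no agent was given to any group, and no age applies. All copies in the table were kept, and they were described by repeat class and family, by divergence from the consensus (a measure of age, low in young copies), by length and by position. The labels number the libraries of a group but do not call them separate cultures, and the count of biological replicates in the published methods differs from theirs, so n counts libraries, the p-values measure a spread that may be technical, and an ESC line cannot be told apart from its generation.

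Terc is the RNA template from which telomerase copies telomere repeats onto chromosome ends, and without it telomeres shorten with each cell division and each generation. The first generation without telomerase inherits chromosomes from parents that still had it, so its telomeres are longer than those of later generations. TEs are repeats that can move, or once could, and they make up a large part of the genome. LTR elements, such as the intracisternal A particles (IAP) and the early transposons (ETn and MusD), resemble retroviruses. LINE-1 elements encode their own reverse transcriptase, and the short SINEs borrow it. In ESCs most of them are held silent by DNA methylation and by histone H3 lysine 9 methylation, which zinc-finger proteins direct to them.

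The library totals ran from 943969 to 1064985 counts in WT ESCs and from 934609 to 1137257 in G1 Terc-/- ESCs. Of the 623916 copies, 123248 had no count in these 6 libraries and 493565 had fewer than 5. The test covered the 13278 single copies that passed a filter on low counts over all 9 libraries. The rest enter only through the sums over subfamilies, families, genes and regions. Copies with counts mainly in G4 Terc-/- ESCs could pass the filter. They add to the number tested but could hardly be called, and how many there were was not counted. Levels are given as CPM (counts scaled to a common library size with TMM factors), and they depend on copy length as well as on transcription. A feature was called where edgeR's quasi-likelihood F test gave a p under 0.05 after Benjamini-Hochberg adjustment, and "rose" and "fell" are used of called features alone. Of the ESC markers, Nanog and Tdgf1 had counts in all 6 libraries, whereas Pou5f1 and Sox2 have no repeat copy in an exon and could not be read from the table.

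The Terc locus was examined first. No repeat copy overlaps Terc itself, at chr3:96414437-96414859 on the minus strand (mm10), so its loss could not be checked in these counts. The 7 copies lying 2 to 5 kb before its start, between positions 96417372 and 96419637, were nearly silent in WT ESCs and transcribed in every G1 Terc-/- library. Their summed counts were 0, 1 and 0 in the WT libraries and 137, 181 and 106 in the G1 Terc-/- libraries, a ratio of 419 with an exact 95% counting interval from 74.8 to 16600. The groups did not overlap, and even the lowest G1 Terc-/- library stood far above the highest WT library.

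Among these copies, BGLII_B (chr3:96418995-96419420) held 48, 44 and 29 counts in the G1 Terc-/- libraries and none in WT ESCs, which is at least 39.8-fold higher against a floor of 3 counts over the group (adjusted p = 3.31e-08). MURVY-LTR (chr3:96418488-96418980) held 28, 42 and 37 counts against none, at least 35.2-fold higher (adjusted p = 1.01e-07). MERV1_LTR (chr3:96417966-96418402) held 30, 47 and 20 counts against 0, 1 and 0, a ratio of 95.8 with an interval from 16.8 to 3820 (adjusted p = 2.55e-07). These 3 LTRs were among the 4 largest fitted rises of all called copies that met the rule for naming. The other 4 copies of the stretch, the SINEs B1_Mus1, B4, B1F and B1F2, held 1 to 14 counts in each G1 Terc-/- library. The 18 remaining copies within 10 kb of Terc showed no such gain, with 53, 56 and 60 counts in WT ESCs and 50, 65 and 29 in G1 Terc-/- ESCs (ratio 0.842, interval 0.669 to 1.06). Intervals cover counting error only.

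**Figure D1:**
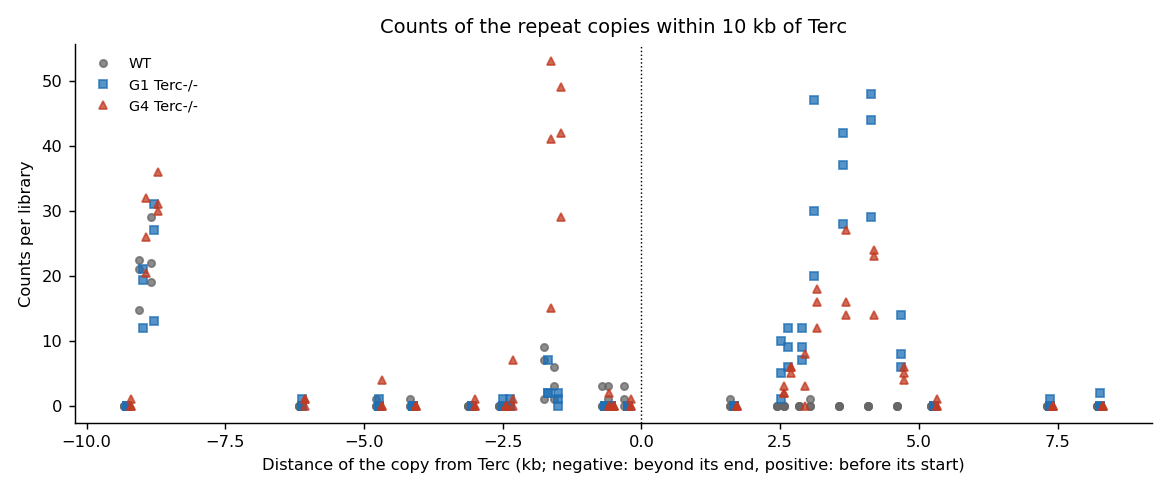
Counts (y axis; 1 point per library) of each of the 25 repeat copies within 10 kb of Terc in WT, G1 Terc-/- and G4 Terc-/- libraries, by distance from Terc in kb (x axis; negative beyond its end, positive before its start; groups offset sideways). The G1 Terc-/- points leave the baseline over the 7 copies 2 to 5 kb before the start, where the WT libraries hold 0, 1 and 0 counts in sum.

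Between 10 and 100 kb from Terc, 7 of 13 tested copies were lower in G1 Terc-/- ESCs and none was higher. The 13 had a median log2 fold change of −1.15. The lower ones lie in a run of IAP copies and a run of MMERVK10C-int and RLTR10C copies, so they are not independent. Over the whole genome 79 of 240 tested IAPEz-int copies and 8 of 36 tested MMERVK10C-int copies were lower too. An IAPEz-int copy 74.7 kb away (chr3:96489585-96492855) had 276, 299 and 335 CPM in WT ESCs and 86.6, 98.3 and 91.3 in G1 Terc-/- ESCs (log2 fold change −1.72, SE 0.163, adjusted p = 6.80e-08). An MMERVK10C-int copy 93.8 kb away (chr3:96508641-96513739) had 337, 347 and 283 CPM in WT ESCs and 145, 143 and 147 in G1 Terc-/- ESCs (log2 fold change −1.15, SE 0.123). In both, every G1 Terc-/- library lay below every WT library. Past 100 kb, 2 of 42 copies were higher and none lower up to 1 Mb, and beyond 5 Mb on chromosome 3 the share of lower copies was 4.11%. Whether the counts on either side of Terc are tied to the targeted allele was not tested.

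Across the genome, 320 single copies were higher (2.41% of those tested) and 579 lower (4.36%) in G1 Terc-/- ESCs. The median log2 fold change of all tested copies was 0.0103, so the scaling left no general shift. Of the called copies, 135 rose and 294 fell by over 2-fold. The WT and G1 Terc-/- libraries did not overlap in 315 of the higher and 572 of the lower copies. The share without overlap among all tested copies was not counted, so these numbers describe the called copies alone. Fewer called copies were higher than lower in every repeat class. Among 3850 tested LTR copies 4.34% were higher and 6.68% lower, among 2395 LINE copies 1.96% and 2.46%, among 6518 SINE copies 1.49% and 3.67%, and among 515 DNA transposon copies 1.75% and 4.66%. The Wald test of DESeq2 called 587 copies, of which 583 were among those above. The class shares of all counts moved little, from 33.1, 33.2 and 33.3% to 33.8, 34.0 and 33.3% for LTR elements, a rise in mean of 0.520 percentage points for which the exact permutation test gave p = 0.1, the smallest it allows with 3 libraries a group.

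Within the LTR class the calls lay mostly in ERVK, the family that holds IAP, ETn and MMERVK10C. Of 1667 tested ERVK copies 5.88% were higher and 9.66% lower, and of 422 ERV1 copies 4.50% and 10.7%. The older ERVL and MaLR families had 10 higher and 11 lower of 452 copies and 38 higher and 36 lower of 1277. Of the LINE-1 copies, 44 of 2170 were higher and 49 lower. Among the SINEs, 46 of 3212 Alu (B1-type) copies were higher and 124 lower.

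Over all classes, 4.90% of 1816 copies under 5% divergence were higher and 7.10% lower, against 1.95% and 3.55% of the 4108 at or above 25%. Young and long LTR copies had high shares of calls in both directions. LTR copies under 5% divergence had 8.11% higher and 12.6% lower among 826 tested, against 3.49% and 4.07% of the 859 at or above 25%. LTR copies of at least 3000 bp, the length of an internal retroviral region, had 6.75% higher and 16.9% lower among 385. Young LINEs did not show this, with 12 higher and 13 lower of 651 copies under 5% divergence, although their median log2 fold change was 0.200. Long LINEs of at least 3000 bp had 19 higher and 11 lower of 736, with a median of 0.187.

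**Figure D2:**
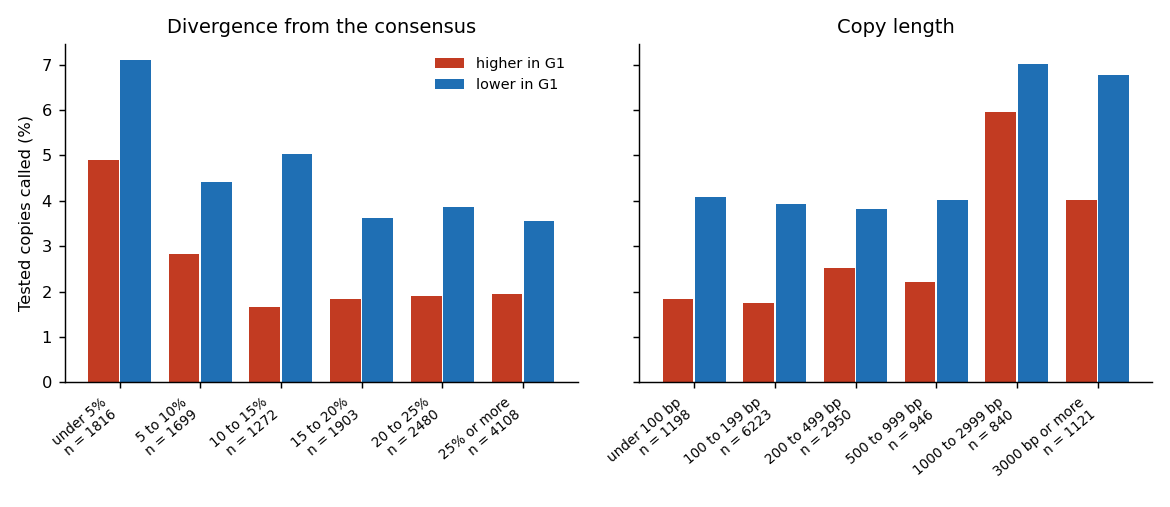
Percent of tested copies of all classes called higher or lower in G1 Terc-/- than in WT ESCs (y axis, from 0), by divergence from the consensus (left) and by copy length (right), with the number tested under each pair of bars. Copies under 5% divergence reach 4.90% higher and 7.10% lower, and copies of at least 3000 bp 4.01% higher and 6.78% lower.

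Calls were also commoner among copies with a value that is not whole (4.55% higher and 6.29% lower of 4354) than among copies with whole values (1.37% and 3.42% of 8924). The part of read sharing in the result was not tested. When all counts of a class were summed by divergence or length, 5 of 43 sums changed (11.6%), 2 upwards and 3 downwards, or 3 and 10 with library totals in place of TMM. LTR elements of 5 to 10% divergence fell from 38700, 38200 and 38900 CPM to 34800, 35400 and 35400 (log2 fold change −0.133, SE 0.0244, adjusted p = 0.00416), which held with each library left out. LTR elements under 5% rose from 125000, 120000 and 123000 CPM to 129000, 135000 and 132000 (0.108, SE 0.0261, adjusted p = 0.0154), but the call was lost without WT library 3 or without any 1 of the G1 Terc-/- libraries. Leaving out 1 library moved the number of called sums from 5 to 15 without WT library 2 and to 1 without WT library 3, G1 Terc-/- library 1 or G1 Terc-/- library 2.

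Counts were then summed by repeat name, and each such sum stands for a subfamily. Of 853 tested, 47 were higher (5.51%) and 54 lower (6.33%) in G1 Terc-/- ESCs. The lower subfamilies included 7 of IAP and MMERVK10C-int, and the higher ones 4 of ETn and MusD, all of the ERVK family. The other called subfamilies were of many kinds. The changes were of moderate size, since no subfamily rose and 3 fell by over 2-fold. Without WT library 2, G1 Terc-/- library 1, 2 or 3 the calls numbered 57, 64, 52 and 59 in place of 101. Of these 101 subfamilies, 36 stayed called when the copy with the most counts was left out of each. Over copies with whole values 37 stayed called, and over copies more than 5 kb from genes 13. Whether the other calls rested on single copies, on shared reads or on the larger counts was not tested for the set.

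IAP elements are young LTR retrotransposons that still move in the mouse, and IAPEz-int is the internal, protein-coding region of their most abundant type. IAPEz-int had 28400, 28800 and 27600 CPM in the WT libraries and 16900, 17400 and 16600 CPM in the G1 Terc-/- libraries. All 3 G1 Terc-/- libraries lay far below all WT libraries, and the spread within a group was small (log2 fold change −0.735, SE 0.0417, adjusted p = 1.9e-10). Its LTR, IAPLTR1_Mm, which holds the promoter, fell with it from 2090, 2160 and 2110 to 1390, 1410 and 1340 CPM (−0.619). Of 22 tested IAP subfamilies 7 were lower and none higher, and the list had a median log2 fold change of −0.172 beside 0.0126 for all subfamilies. The other 5 were IAPEy-int (−1.20), IAPA_MM-int (−0.865), IAPEY3-int (−0.508), IAPEY4_I-int (−0.495) and IAPLTR1a_Mm (−0.411). IAPEy-int lost its call without G1 Terc-/- library 2, and IAPEY3-int without WT library 2 or 3 or G1 Terc-/- library 1 or 3.

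The fall of IAPEz-int was spread over many copies but was not uniform. Of 240 tested copies 79 were lower and 8 higher, and the 17 copies that lost most carried the greater part of the summed fall. The called lower copies together went from 15400 to 5920 CPM. Copies next to an IAPLTR1_Mm LTR were lower in 64 of 152 cases (42.1%, median log2 fold change −0.872), and copies next to IAPLTR1a_Mm in 7 of 40 (17.5%, median −0.140). By place, 39.3% of 84 copies over 5 kb from any gene were lower, 47.7% of 44 within 5 kb of a gene and 24 of 109 inside introns. Summed over copies far from genes alone, the fall was larger (−1.25, adjusted p = 3.08e-18). Summed over copies with whole values alone, it was −0.197 with an adjusted p of 0.339, while IAPLTR1_Mm kept its call (−0.796, adjusted p = 0.00784). How reads were divided to give values that are not whole is not given in the sources used here, so the level of any 1 such copy is uncertain.

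The strongest IAPEz-int losses by amount were at chr5:124104856-124109757, 1352 bp from Gm16001, where 2660, 2610 and 2710 CPM in WT ESCs became 1090, 1060 and 1210 (log2 fold change −1.24, SE 0.0831, adjusted p = 1.56e-10). A copy at chr11:51665383-51668653, far from genes, went from 1190, 1060 and 1060 to 352, 369 and 355 CPM (−1.62, SE 0.094). In both the ranges of the groups lay far apart. These copies were picked for their amount after their values were seen. By fold, a nearly full-length copy at chr12:48532550-48538950 had 45.8, 53.3 and 48.0 CPM in WT ESCs and 2.09, 0 and 0 in G1 Terc-/- ESCs (log2 fold change −5.95, SE 0.575, adjusted p = 8.43e-08). A copy at chr4:127008876-127015333 had 169, 194 and 179 CPM in WT ESCs and 6.26, 19.5 and 19.8 in G1 Terc-/- ESCs (−3.55, SE 0.208, adjusted p = 2.47e-11), while the G4 Terc-/- libraries held 264, 305 and 288 CPM. This copy was thus low in the first generation and high in the other groups. All 8 copies named for the largest falls were IAPEz-int or IAPLTR1_Mm copies. Against this direction, an IAPEz-int copy at chr17:8216337-8222791 rose from 0, 0 and 4.8 CPM to 13.6, 22.2 and 27.5 (3.55, adjusted p = 0.00241), though not in the DESeq2 test.

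MMERVK10C, another ERVK type, fell in its internal region from 2280, 2470 and 2210 to 1440, 1500 and 1510 CPM (log2 fold change −0.642, SE 0.0505, adjusted p = 1.26e-08), with 8 of 36 tested copies lower and none higher. It was the only called subfamily of its 13-member list. RLTR1B-int, an ERV1 internal region, fell from 11200, 12100 and 11600 to 9250, 9320 and 8640 CPM (−0.360), with 20 of 47 copies lower. Its losses were clustered, and a run of 9 called RLTR1B-int, LTRIS2 and RMER16-int copies in an intron of Rims2 (chr15:39241846-39247522) went from a summed 3520 to 1710 CPM. A run of 7 inside Tlr4 (chr4:66902813-66907685) went from 685 to 233. Over copies with whole values alone neither was called (MMERVK10C-int −0.275, adjusted p = 0.0949, and RLTR1B-int −0.216, adjusted p = 0.133).

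Other falls stood for 1 copy of a name. MTEb-int fell from 1510, 1630 and 1490 to 813, 823 and 813 CPM, but a copy in the Loxl2 gene held 93.3% of its counts, and without that copy the log2 fold change was −0.274 (adjusted p = 0.384). LTR103b_Mam fell by 1.14 on the log2 scale from 695, 811 and 763 to 334, 327 and 372 CPM with 99.7% of its counts in a Gata4 copy. MuLV-int fell by 0.401, and its log2 fold change was 0.0121 without the copy in AI506816 that held 95.5% of its counts. These belong to the account of host genes given later.

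ETn and MusD elements are young LTR elements with known new insertions in mouse stocks, and they rose as the IAP elements fell. MMETn-int, their internal region, had 41000, 39400 and 37600 CPM in WT ESCs and 55400, 57700 and 54100 in G1 Terc-/- ESCs. Each G1 Terc-/- library was above each WT library (log2 fold change 0.502, SE 0.0392, adjusted p = 1.26e-08). ETnERV-int rose from 6300, 6410 and 6550 to 8930, 8980 and 8870 CPM (0.475, SE 0.0399), and the LTRs ERVB7_1-LTR_MM and RLTRETN_Mm rose by 0.485 and 0.444. Of 10 tested ETn and MusD subfamilies 4 were higher and none lower, with a list median of 0.252. G4 Terc-/- ESCs had a mean of 28600 CPM of MMETn-int, below the WT level.

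**Figure D3:**
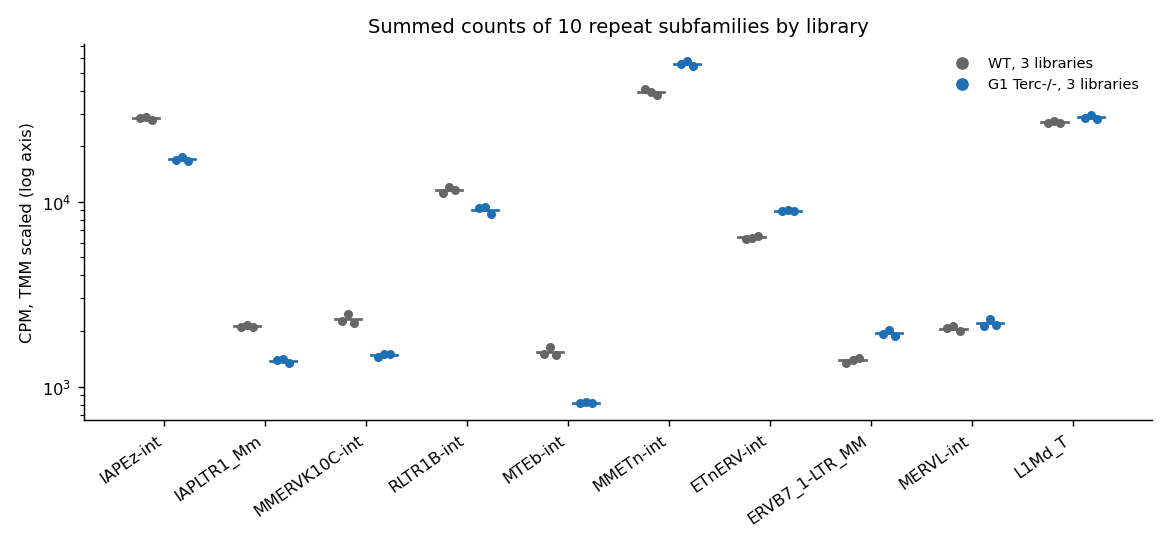
Level of 10 subfamilies in each WT and G1 Terc-/- library (y axis, CPM on a log axis; 1 point per library, lines are group means). IAPEz-int lies at 27600 to 28800 CPM in WT and 16600 to 17400 CPM in G1 Terc-/- ESCs, and MMETn-int at 37600 to 41000 and 54100 to 57700 CPM.

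Fewer copies carried these rises than carried the IAP fall. Of 104 tested MMETn-int copies 26 were higher and 1 lower, and 5 copies gave the greater part of the gain. The most abundant copy (chr4:137381805-137386188, 1078 bp from 2810405F17Rik) went from 7090, 6740 and 6910 to 10800, 9980 and 8860 CPM (log2 fold change 0.513, SE 0.0598, adjusted p = 1.6e-06). A copy in an intron of Slc4a4 (chr5:89205727-89208687) went from 942, 815 and 801 to 1950, 1890 and 1830 CPM (1.15, SE 0.0929, adjusted p = 5.95e-09). A copy at chr5:88164400-88167684 had 44.8, 229 and 61.4 CPM in WT ESCs and 879, 571 and 718 in G1 Terc-/- ESCs (2.70, SE 0.307, adjusted p = 1.13e-06). In all 3 the groups stood apart, also where 1 WT library exceeded the others, and these too were chosen after their values were seen. The Sntb1 copy (chr15:55871786-55875069) is an exception, at 1510 CPM in G1 Terc-/- library 1, below all WT libraries, and 2770 and 2680 in the others, and its call was lost without any 1 of 5 libraries, all but G1 Terc-/- library 1.

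A single locus on chromosome 16 (25517734-25523269) carried 8 called ETn-type copies that went from a summed 7850 to 12500 CPM. The locus in Slc4a4 carried 6, from 1320 to 2870, and one at chr13:113718730-113723954 carried 6, from 864 to 1950. Over copies far from genes the log2 fold change was 0.394 for MMETn-int, still called, and 0.214 for ETnERV-int, no longer called. Over whole-valued copies MMETn-int gave 0.0438 (adjusted p = 0.922) and ETnERV-int 0.273 (adjusted p = 0.361), neither called, and the value of ERVB7_1-LTR_MM turned to −0.0795.

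**Figure D4:**
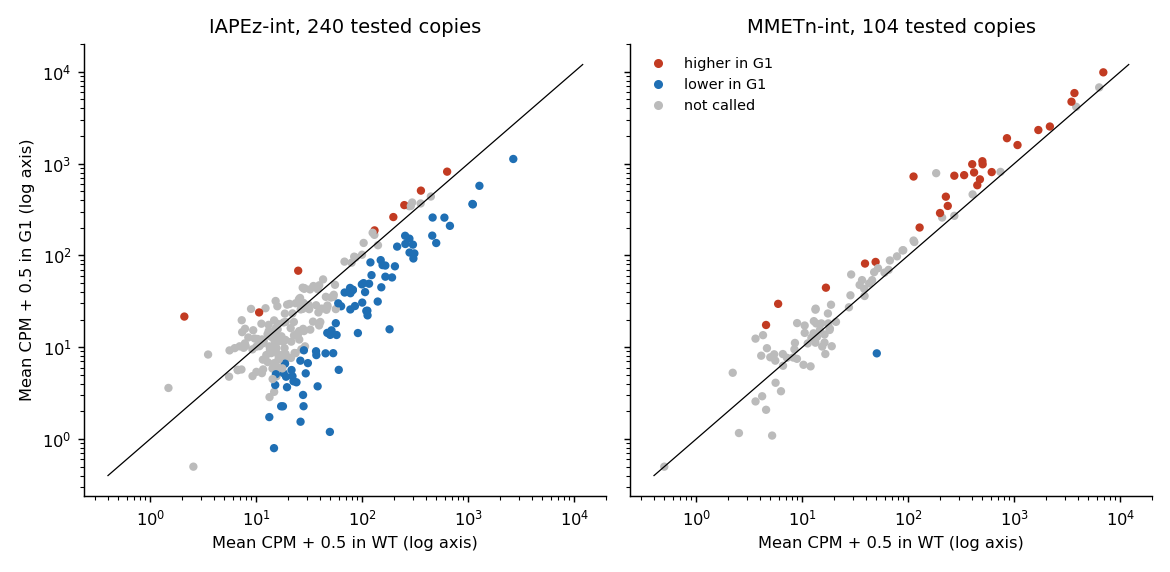
Mean level of each tested IAPEz-int (left) and MMETn-int (right) copy in WT (x axis) and G1 Terc-/- ESCs (y axis), as CPM plus 0.5 on log axes with the line of equal levels. Of 240 IAPEz-int copies 79 were called lower (blue) and 8 higher (red), and of 104 MMETn-int copies 26 were called higher and 1 lower.

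ERVB3 and ERVB4, ERVK types that the study follows, had 3 of 9 tested subfamilies higher and none lower, with a median log2 fold change of 0.520. ERVB4_2-I_MM-int (0.697) lost its call without WT library 1 or G1 Terc-/- library 2 and ERVB4_1-I_MM-int (0.680) without G1 Terc-/- library 2, whereas ERVB4_1C-LTR_Mm rose from 1680, 1690 and 1530 to 2130, 2070 and 2020 CPM (0.344) whichever library was left out. Over whole-valued copies none of the 3 was called. Of 45 tested rodent MaLR subfamilies 7 were higher and 2 lower, beside 5.51% and 6.33% of all subfamilies tested. MERV1_LTR rose from 54.0, 57.3 and 48.9 to 92.0, 85.7 and 83.9 CPM, a rise that came from the Terc flank, since without the copies within 10 kb of Terc its adjusted p was 0.94.

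MERVL, the LTR element that marks ESCs in a state like the 2-cell embryo, showed no call. MERVL-int had 2080, 2120 and 1990 CPM in WT ESCs and 2130, 2310 and 2150 in G1 Terc-/- ESCs (log2 fold change 0.0905, adjusted p = 0.262), and none of its 69 tested copies was called. The filter on low counts took in the G4 Terc-/- libraries, so copies nearly empty in both other groups could be among the 69. Such copies could hardly be called, so no conclusion is drawn from this count. Its promoter LTR MT2_Mm gave 0.114 (adjusted p = 0.383). The G4 Terc-/- libraries had a mean of 5340 CPM of MERVL-int.

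Of 6 tested young LINE-1 subfamilies 2 were higher, L1Md_Gf and L1Md_T, and none was lower, beside 5.51% and 6.33% of all subfamilies tested. L1Md_Gf rose from 748, 893 and 877 to 1050, 1050 and 1070 CPM (log2 fold change 0.330, SE 0.0681, adjusted p = 0.00294), a call not made over copies far from genes or over whole-valued copies (0.569, adjusted p = 0.177). L1Md_T, far more abundant, had 26800, 27200 and 26600 CPM in WT ESCs and 28400, 29400 and 28200 in G1 Terc-/- ESCs (0.0930, SE 0.0261, adjusted p = 0.0272). The groups did not overlap, but the call was lost without WT library 1, WT library 3, G1 Terc-/- library 1 or G1 Terc-/- library 2. With all libraries kept, it was also lost under DESeq2 size factors and in the Wald test of DESeq2. The same held with no filter on low counts and over copies far from genes. Over whole-valued copies the value was −0.156. Of 586 tested copies 14 were higher and 6 lower, beside 2.41% and 4.36% of all copies. A copy in an intron of Lgmn (chr12:102406083-102412775) fell from 3670, 4240 and 4280 to 1940, 1810 and 1890 CPM (−1.11, SE 0.0737, adjusted p = 1.56e-10), the largest loss of any copy in CPM. Of the 15 tested B1 subfamilies 2 were lower, B1F1 (−0.195) and B1F2 (−0.113), and of the 13 tested B2 and B4 subfamilies 1 was higher, B2_Mm1a (0.157). Among all tested subfamilies 5.51% were higher and 6.33% lower. B1F1 gave −0.00139 without the copies inside primitive endoderm genes.

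At the level of families, 10 of 36 changed (27.8%). The largest was ERV1?, a doubtful group whose fall from 699, 770 and 764 to 319, 318 and 372 CPM lay to 99.6% in the Gata4 copy. The old families hAT (−0.417), Gypsy (−0.231), tRNA (−0.186), MIR (−0.119), L2 (−0.0928), ID (−0.0906) and hAT-Charlie (−0.0873) fell slightly, and MULE-MuDR (0.447) and MuDR (0.424) rose. Both rises lay largely at 1 place in Klhl13, where a copy (chrX:23361524-23361715) held 61.8% of the MULE-MuDR counts and an overlapping one (chrX:23361427-23361677) 74.2% of the MuDR counts. The MULE-MuDR call was lost without G1 Terc-/- library 2, and the MuDR call without WT library 2 or 3 or G1 Terc-/- library 1 or 3. Only 3 families changed when the copies over 5 kb from genes were taken alone, and MIR, tRNA, ID and hAT-Charlie then had values above 0. Without G1 Terc-/- library 2 the number of called families was 6.

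Outside the Terc flank and the IAP copies, the copies named for the largest rises were few and weakly expressed. An MTA_Mm-int copy at chr7:4982285-4983275, 208 bp from Zfp579, had no count in WT ESCs and 14.6, 28.4 and 20.9 CPM in G1 Terc-/- ESCs, at least 21.4-fold higher. An RLTR13G copy on the Y chromosome (chrY:47720488-47720715) went from 2.08, 0 and 7.68 to 61.6, 97.5 and 24.2 CPM (log2 fold change 4.15), and one on the X chromosome (chrX:16339742-16339977) rose by 3.70 on the log2 scale. An L1Md_T copy at chr16:80939368-80944790 went from 0, 0 and 4.8 to 8.35, 39.0 and 38.5 CPM. The MTA_Mm-int and L1Md_T calls were not made by the Wald test of DESeq2. The rule for naming took only copies in which the WT and G1 Terc-/- libraries did not overlap.

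Called copies came in runs. With copies within 10 kb joined, the 320 higher copies fell into 209 loci, 24 of them with at least 3 copies, and the 579 lower copies into 376 loci, 45 with at least 3. The longest higher run was 13 copies in Tfcp2l1, a naive pluripotency factor (chr1:118678046-118683375, 1210 to 2070 CPM in sum), and the longest lower run was 12 copies in Gm47283 on the Y chromosome (822 to 412). Whether the copies of a run share a transcript was not tested, and they were not taken as independent observations of a change.

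Some called copies lay on gene starts, where a repeat may supply the promoter. Of the called copies, 12 overlapped the 300 bases around a RefSeq gene start (250 before to 50 after, GRCm38.p6) and 8 covered the start itself. The share of all tested copies at gene starts was not counted, so whether these numbers are high or low cannot be read. An ID_B1 and a PB1D7 copy among the 12 overlap each other at Zfp57. The 3 shown have the repeat in capitals and run 5′ to 3′ along the gene, and they are printed because they hold 1 complete LTR cover, 1 partial LTR and 1 SINE at a pluripotency-linked gene. Gm38894 starts within an RLTRETN_Mm LTR of the ETn group (promoter chr6:124797044-124797343, minus strand, repeat chr6:124797030-124797350), Gm32885 starts within an MLTR31F_MM LTR (chr15:97167195-97167494, minus strand), and Zfp57, which encodes a zinc-finger protein that keeps imprints methylated, has an ID_B1 SINE before its start (chr17:37003416-37003715, plus strand).
Gm38894: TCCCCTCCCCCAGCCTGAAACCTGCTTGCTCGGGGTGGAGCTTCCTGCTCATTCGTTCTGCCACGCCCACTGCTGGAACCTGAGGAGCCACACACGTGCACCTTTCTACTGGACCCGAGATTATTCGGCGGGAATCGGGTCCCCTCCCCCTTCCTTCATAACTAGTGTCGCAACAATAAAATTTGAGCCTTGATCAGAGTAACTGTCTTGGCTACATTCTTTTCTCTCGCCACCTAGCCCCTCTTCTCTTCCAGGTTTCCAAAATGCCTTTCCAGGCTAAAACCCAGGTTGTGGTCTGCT
Gm32885: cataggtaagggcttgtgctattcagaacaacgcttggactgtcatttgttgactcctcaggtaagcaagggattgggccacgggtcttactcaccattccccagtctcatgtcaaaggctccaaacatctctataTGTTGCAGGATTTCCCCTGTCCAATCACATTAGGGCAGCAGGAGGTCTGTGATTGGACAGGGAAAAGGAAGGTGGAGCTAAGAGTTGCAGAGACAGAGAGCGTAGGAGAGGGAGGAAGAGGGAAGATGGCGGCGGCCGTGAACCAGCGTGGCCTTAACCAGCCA
Zfp57: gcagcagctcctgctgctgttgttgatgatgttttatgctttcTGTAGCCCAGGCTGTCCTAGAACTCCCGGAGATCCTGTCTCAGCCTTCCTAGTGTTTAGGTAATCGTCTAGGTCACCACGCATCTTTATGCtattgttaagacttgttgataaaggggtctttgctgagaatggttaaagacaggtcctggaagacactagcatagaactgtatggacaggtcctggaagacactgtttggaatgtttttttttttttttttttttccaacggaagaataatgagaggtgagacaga

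The RLTRETN_Mm LTR at Gm38894 rose from 34.4, 26.1 and 35.5 to 69.9, 88.6 and 71.5 CPM (log2 fold change 1.26, SE 0.22, adjusted p = 0.000398). It was 1 of 4 higher copies among the 30 tested of its subfamily, none of which was lower. The MLTR31F_MM LTR at Gm32885 fell from 15.6, 15.7 and 22.1 to 2.09, 1.77 and 1.10 CPM (−3.33, SE 0.46, adjusted p = 2.11e-05), against 223, 301 and 232 CPM in G4 Terc-/- ESCs. It was 1 of a run of 4 called copies at Gm32885 (chr15:97157004-97167358) that fell together from 38.3 to 2.66 CPM. The ID_B1 copy at Zfp57 rose from 40.6, 56.4 and 53.8 to 96.0, 81.5 and 80.3 CPM (0.77). In none of the 3 did the groups overlap.

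Position along the genome was read next, since telomeres lie at the chromosome ends. Copies in the last 1 Mb before the distal end were called higher in 11 of 217 cases (5.07%) and lower in 16 (7.37%), against 2.55% and 3.20% at 1 to 20 Mb and 2.32% and 4.55% farther in. In that last 1 Mb the higher copies were 3 of 44 LINE, 4 of 66 LTR and 4 of 101 SINE copies, and the lower ones 7 LINE, 1 LTR, 7 SINE and 1 DNA transposon copies. Gm47283, with its run of 12 lower copies, lies near the distal end of the Y chromosome (a copy in it is at chrY:90793062-90793206). Most of the 16 lower copies thus belong to 1 locus and are not independent. Counting either end, 19 of 394 were higher and 21 lower, that run included. Contexts and end bins were also summed and tested, and 14 of 36 such sums changed (38.9%). LTR counts in the last 1 Mb went from 3300, 3110 and 3250 to 3410, 3680 and 3570 CPM (log2 fold change 0.143, SE 0.0506, adjusted p = 0.0498), a call lost when any 1 library was left out. LINE, SINE and DNA transposon sums there had values of 0.0105, −0.00768 and −0.0183, each with an adjusted p of 0.931. Leaving out WT library 3 and G1 Terc-/- libraries 1, 2 and 3 gave 6, 8, 3 and 4 called sums, and without WT library 2 there were 9.

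The sum over all copies more than 5 kb from any gene went from 85400, 81000 and 82900 to 89200, 92100 and 90900 CPM (log2 fold change 0.127, SE 0.0300, adjusted p = 0.0111), with LINEs there at 0.237 (SE 0.0552) and the exonic sum at −0.0764. Of all 14 called sums 8 rose and 6 fell, or 5 and 7 with DESeq2 size factors. The call for all copies far from genes was lost without WT library 3 or any 1 of the G1 Terc-/- libraries, that for LINEs without WT library 3 or G1 Terc-/- library 2 or 3, and the exonic call without WT library 1 or 2 or G1 Terc-/- library 2 or 3. The exonic call was also lost with library totals, in the fit of the 6 libraries alone and with the replicate block, and the exonic sums of LTR elements and LINEs alone were not called (adjusted p = 0.0726 and 0.125). Among single copies more than 5 kb from any gene 8.50% of 541 LTR copies were higher and 14.6% lower. Of 407 LINE copies there 9 were higher and 2 lower, with a median log2 fold change of 0.293. LTR copies inside introns were higher in 11 of 533 cases and lower in 32 when they lay on the strand of the gene, and higher in 48 and lower in 40 of 780 when they lay opposite. The libraries were counted without strand here, so reads of a gene and of a repeat inside it cannot be told apart. SINE copies on unplaced scaffolds fell from 131, 133 and 152 to 67.8, 69.1 and 72.6 CPM (−0.991, adjusted p = 2.12e-05), a call that no setting removed.

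By chromosome, 8 of 21 sums changed (38.1%), 2 upwards and 6 downwards, or 9 and 9 with library totals. Chromosome 14 fell from 38100, 36500 and 38100 to 32800, 33400 and 33800 CPM (log2 fold change −0.172, SE 0.0369, adjusted p = 0.000157), with no overlap and in every setting run. Chromosomes 16 (0.118) and 6 (0.11) rose, and the Y (−0.496), X (−0.0911), 15 (−0.0876), 10 (−0.0867) and 12 (−0.0864) fell, all calls that were lost when some libraries were left out. Large changes at single loci enter these sums. They include Loxl2 and Gata4 on chromosome 14, the Lgmn copy on 12 and the ETn-type locus on 16. The median log2 fold change of single tested copies was −0.00839 on chromosome 14, 0.000136 on 16, 0.0839 on 6 and 0.0406 on 12. It was −0.058 on the X, −0.0037 on 15 and −0.0546 on 10. Without WT library 3 or G1 Terc-/- library 2 the number of called chromosomes was 1, and without G1 Terc-/- library 1 it was 4. The Y chromosome went from 2870, 2110 and 2490 to 1600, 1830 and 1870 CPM. Of its 50 tested copies 12 were lower and 2 higher, with a median log2 fold change of −0.694. The 12 lower ones are the run in Gm47283 given above.

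Windows of 10 Mb were summed and tested in the same way. Of 284 windows 85 changed (29.9%), 36 upwards and 49 downwards. The largest rise was at 80 to 90 Mb of chromosome 5, from 3040, 3140 and 2970 to 5740, 5720 and 5700 CPM (0.907, SE 0.0448), the window of the MMETn-int copy in Slc4a4. The largest fall was 0.745 at 90 to 100 Mb of the Y chromosome, in Gm47283. Falls of 0.690 at 60 to 70 Mb of chromosome 14, 0.684 at 10 to 20 Mb of chromosome 8 and 0.612 at 100 to 110 Mb of chromosome 12 on the log2 scale held the Loxl2, Col4a2 and Lgmn copies. The sums of chromosomes 5 (−0.0394, adjusted p = 0.350) and 8 (0.00849, adjusted p = 0.804) as a whole were not called. A rise of 0.427 in the first 10 Mb of chromosome 1 came from G1 Terc-/- library 1, with 5270 CPM against 2930 and 3020 in the other 2, and was lost without it.

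Host genes could be followed where a repeat copy lies in an exon, as a partial reading of the gene. Of 4596 such genes 211 were higher (4.59%) and 300 lower (6.53%) in G1 Terc-/- ESCs. Of the tested genes of the primitive endoderm, the extraembryonic layer that faces the blastocyst cavity, 6 of 9 were lower and 1 higher, and of those of pluripotency 9 of 14 were higher and none lower. In bulk RNA, fewer cells of a type and less RNA per cell cannot be told apart. The lists were chosen with earlier results of these data known, so their directions are descriptions, and called members beyond the 3 that the naming rule takes from a list were named after their values were seen.

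Of 25 primitive endoderm genes 12 have an exonic copy, 9 were tested, and 6 were lower and 1 higher, with summed levels of 10000, 10300 and 9830 CPM in WT ESCs and 4950, 4930 and 5030 in G1 Terc-/- ESCs. Col4a2, a basement membrane collagen chain, had 3490, 3540 and 3470 CPM in WT ESCs and 1600, 1550 and 1630 in G1 Terc-/- ESCs (log2 fold change −1.14, SE 0.0627, adjusted p = 9.67e-21). Sox7, a transcription factor of the lineage, had 280, 232 and 274 CPM against 107, 104 and 96.1 (−1.35, SE 0.14, adjusted p = 1.04e-10). Both genes were lower in every G1 Terc-/- library. Gata4, which specifies the lineage, fell by 1.12 on the log2 scale, Loxl2, a collagen-modifying oxidase, went from 5100 ± 160 to 2560 ± 13.1 CPM (SD, n = 3 libraries), Srgn fell by 1.15 and Pdgfra, a growth factor receptor of these cells, by 0.820. Thbd rose by 0.827. Sparc, with 32 counts over the WT and 45 over the G1 Terc-/- libraries, and Ctsl, with 413 and 331, were not called.

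Of 31 pluripotency genes 16 have an exonic copy, 14 were tested, and 9 were higher and none lower, with summed levels of 15400, 15400 and 15500 CPM in WT ESCs and 21600, 21000 and 20800 in G1 Terc-/- ESCs. Tfcp2l1 had 1290, 1230 and 1320 CPM in WT ESCs and 2180, 2310 and 2140 in G1 Terc-/- ESCs (log2 fold change 0.791, SE 0.0597, adjusted p = 2.74e-15). Nanog, a core factor of self-renewal, had 1230, 1300 and 1400 against 2390, 2100 and 2220 (0.774, SE 0.0665, adjusted p = 2.29e-13). In both the lowest G1 Terc-/- library was above the highest WT library. Zfp57 (0.754), Tdgf1 (0.625), Dppa2 (0.583), Gdf3 (0.483), Fgf4 (0.423) and L1td1 (0.242) also rose, and Prdm14 (1.52) rose at a low level and lost its call without any 1 of 5 libraries. Cdh1, Lin28a and Platr14 were not called. Esrrb, with 9 counts over the WT and 14 over the G1 Terc-/- libraries, and Rif1, with 35 and 54, were not called either. At such low counts a change could hardly be seen.

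**Figure D5:**
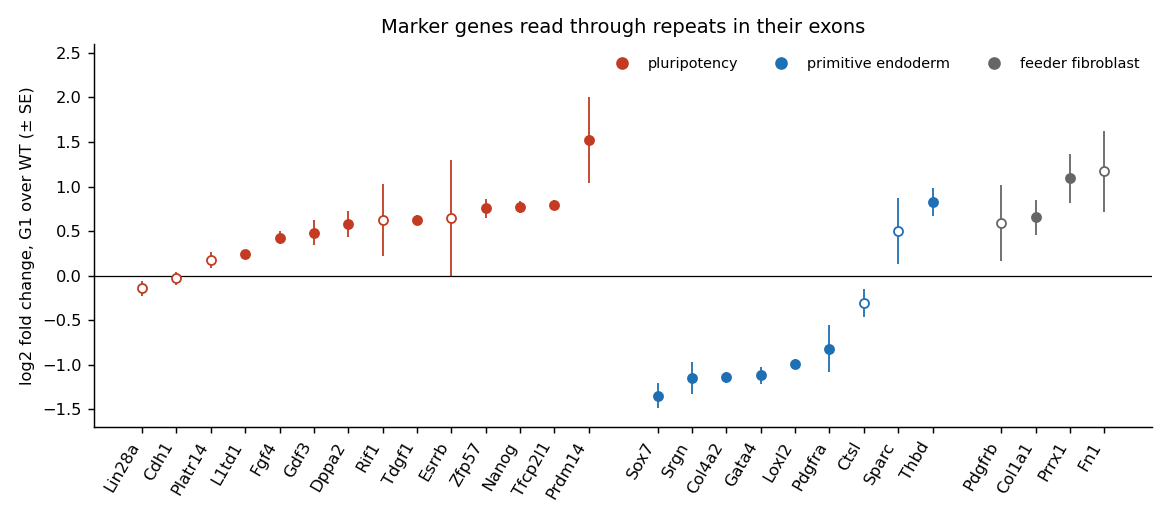
Log2 fold change of G1 Terc-/- over WT ESCs with its SE (y axis) for the tested genes of the pluripotency, primitive endoderm and feeder fibroblast lists, read through exonic repeats (filled points called, open points not). Most primitive endoderm genes lie below 0, with Sox7 at −1.35, and most pluripotency genes above 0, with Tfcp2l1 at 0.791.

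Markers of feeder fibroblasts were scarce. Of 26 listed, 7 have an exonic copy and 4 were tested, with summed levels of 84.6, 58.5 and 95.1 CPM in WT ESCs and 155, 135 and 129 in G1 Terc-/- ESCs. Col1a1 (0.654) and Prrx1 (1.09) rose, while Dcn had 2 counts over the WT libraries and 0 over the G1 Terc-/- libraries, and Thy1 had 2 and 9. The Col1a1 call was lost without WT library 2, G1 Terc-/- library 1 or 2, and that of Prrx1 without WT library 2. The part of residual feeder RNA in other results was not tested. Of the 2-cell-like list, Zfp750 alone had counts to compare and was not called (log2 fold change 0.188, adjusted p = 0.874).

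Of the telomerase and shelterin list, 18 of 23 genes have an exonic copy and 9 were tested. Of these, 1 was higher and 1 lower, beside 4.59% and 6.53% of all genes tested. Dkc1, the pseudouridine synthase that holds the telomerase RNA, rose from 285, 255 and 262 to 392, 335 and 361 CPM (0.438, SE 0.0963, adjusted p = 0.000936). Tnks, a poly-ADP-ribose polymerase that releases TRF1 from telomeres, fell from 300, 294 and 260 to 209, 211 and 202 CPM (−0.458, SE 0.111, adjusted p = 0.00275). Neither pair of groups overlapped. Terc has no exonic copy, and Tert held 4 and 5 counts over the WT and G1 Terc-/- libraries, too few to test.

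Of 17 tested p53 target genes 1 was higher and 5 lower, beside 4.59% and 6.53% of all genes tested. Rrm2b, a ribonucleotide reductase subunit used in DNA repair, rose by 1.04, and Polk (−0.610), Tnfrsf10b (−0.567), Eda2r (−0.470), Aen (−0.362) and Ccng1 (−0.220) fell. The cell cycle inhibitor Cdkn1a (−0.225, adjusted p = 0.162) and Mdm2 (0.0196) were not called. Of 18 tested DNA repair genes the recombination gene Xrcc2 was lower (−0.475).

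Of 16 tested genes of H3K9 methylation and repeat silencing 2 were higher and 3 lower, beside 4.59% and 6.53% of all genes tested. Hells (0.490), a chromatin remodeller needed for DNA methylation of repeats, and Resf1 (0.495), a SETDB1 partner, rose. Suv39h1, an H3K9 methyltransferase, fell from 330, 385 and 438 to 272, 281 and 270 CPM (−0.489, SE 0.106, adjusted p = 0.000737), as did Pphln1 (−0.449) of the HUSH complex and Zfp809 (−0.288), a zinc-finger repressor of retroviruses. Setdb1 (−0.0977) and Trim28 (−0.212) were not called. Imprinted genes moved in both directions, with Rian higher (0.508) and Airn (−0.970) and Peg3 (−0.679) lower, of 10 tested, beside the same shares of all genes. The call of Rian was lost without WT library 3 or G1 Terc-/- library 1.

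Among genes outside the lists, the largest falls were in Kcnq5 (16.9, 29.2 and 16.3 to 1.07, 4.60 and 3.39 CPM, log2 fold change −2.70), a potassium channel, and AI662270 (136, 104 and 138 to 43.9, 35 and 31.6 CPM, −1.78), whose counts lay to 96.7% in an RLTR21 copy. Dkk1, an inhibitor of Wnt signalling, fell from 25.4, 25.1 and 28.8 to 8.56, 9.20 and 9.04 CPM (−1.55), and Emp2 and Vnn1 each fell by 1.52. The calls of Kcnq5 and Dkk1 were not made by the Wald test of DESeq2. The largest rises were in 1110002J07Rik (6.35, 5.22 and 3.84 to 20.3, 32.2 and 13.6 CPM, 2.12), Plek (1.63), Lrrn4cl (1.51) and Arl14epl (44.4, 38.6 and 66.3 to 128, 130 and 156 CPM, 1.45). The rule for naming took only genes in which the WT and G1 Terc-/- libraries did not overlap.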

How the data were processed

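Expected counts per single TE copy, estimated and deposited by the authors, were analysed as given. Per the labels, total RNA was prepared with the TruSeq RNA kit, and the submitters' processing notes name FastQC 0.11.9, STAR 2.5.3a, featureCounts and mm10. How reads shared between copies were divided is not given in the sources used here, and 55092 copies hold a value that is not whole. A second deposited table, scaled by the authors with a size factor per library, was not used.

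Rounded counts that passed filterByExpr entered 1 fit over all 9 libraries in edgeR 4.0.16 (R 4.3.3, quasi-likelihood F test, two-sided), with TMM factors computed from the totals of the whole table. The G1 against WT contrast was adjusted by Benjamini-Hochberg within each level, and the SE is the size of the log2 fold change divided by the root of F. Alternatives used DESeq2 1.42.0, and scripts were tested on simulated data. Exonic means at least 0.5 of a copy's length in exons of 1 gene (55450 gene models), and near means within 5000 bp. Subfamilies and copies were named as the 8 largest called changes each way and genes as the 10 largest, without overlap and with at least 50 mean counts (subfamilies) or 20 in the higher group, besides list members and repeats the study names. Members and lists were chosen with earlier results of these data known.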

Additional observations from a re-analysis of the deposited data

Results flagged for a closer look

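The G4 Terc-/- libraries lie outside the comparison of G1 Terc-/- with WT ESCs, yet the 7 copies 2 to 5 kb before the start of Terc also held counts in them. The summed counts were 59, 73 and 82 in G4 Terc-/- replicates 1, 2 and 3, above the 0, 1 and 0 counts of the WT libraries, and they are given here because the G4 Terc-/- libraries belong to neither of the groups compared.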

How the results depend on the processing

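Calls among copies, subfamilies, families, genes and windows kept within 1.5 times of their number under DESeq2 size factors, library totals and a fit of WT and G1 Terc-/- libraries alone. Library totals gave 13 age and length sums (3 higher, 10 lower) and 18 chromosomes (9 and 9), and the fit of the 6 libraries gave 4 chromosomes. The Wald test of DESeq2 gave 587 copies, and the fold rule with an unadjusted p gave 942 (455 higher, 487 lower). Subfamilies called were 40 over whole-valued copies, 23 over copies far from genes and 42 without each top copy. Copies far from genes gave 3 families and 14 age and length sums. Leaving out 1 library gave 655 to 720 copies, 52 to 87 subfamilies, 6 to 11 families, 1 to 15 age and length sums, 1 to 11 chromosomes, 3 to 12 contexts, 63 to 97 windows and 392 to 433 genes. The cause of these moves was not tested.

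Values changed sign over whole-valued copies for ERVB7_1-LTR_MM (−0.0795) and L1Md_T (−0.156), and without the top copy for MuLV-int (0.0121). Over copies far from genes they did so for B1F2 (0.0941), B2_Mm1a (−0.125), MTEb (0.25), RLTR17B_Mm (0.00708), RLTR6C_Mm (−0.0557), hAT-Charlie (0.0837), ID (0.347), MIR (0.0701), tRNA (0.0106) and LINEs under 100 bp (0.182). The class shares there differed by −0.0317 points for DNA transposons, 1.79 for LINEs, −1.90 for LTR elements and 0.140 for SINEs.

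The replicate numbers did not pair the libraries: deviations of same-numbered WT and G1 Terc-/- libraries correlated at −0.00873, −0.0117 and −0.00904. A replicate block gave 796 copies, 85 subfamilies, 472 genes, 11 families, 4 age and length sums, 4 chromosomes, 8 contexts and 80 windows. Settings chosen after seeing the data gave 96 subfamilies without copies near Terc, and 90 subfamilies and 10 families without copies inside primitive endoderm genes.

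With 3 libraries a group and most copies under 5 counts, a change in a low copy was not detectable at this depth.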
